A study of Rattus norvegicus with 12 samples.

Results

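Rat Kat6a stood clearly higher in 6 of the 12 libraries of this study than in the other 6, and those 6 libraries, 3 that received wild-type KAT6A and 3 that received the K815R mutant, are the subject here. They were chosen by the measured Kat6a level, not by the virus alone. The cells were primary ventricular cardiomyocytes from newborn rats, kept in culture and given an adenovirus for 2 days. The virus carried LacZ, a bacterial gene used as control cargo, or human KAT6A as the wild-type protein (WT), as K815R, in which a lysine is replaced by arginine that cannot be acetylated, or as K815Q, in which glutamine mimics the acetylated lysine. Each of the 4 groups had 3 libraries, and every group, the LacZ control included, carried an adenovirus. Such cultures are primary and mixed, and the labels do not say whether the 3 libraries of a group came from separate isolations, so p-values measure only the spread between these libraries. Its stated question is whether acetylated and unacetylated KAT6A act differently on growth and mitochondrial metabolism of these cells, by way of AMPK.

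KAT6A, also called MOZ, is a histone acetyltransferase of the MYST family. It works in a complex in which a BRPF scaffold protein, ING5 and MEAF6 hold the enzyme on chromatin and direct it to histone H3, and it is best known for keeping developmental genes such as the HOX genes active. AMPK is the kinase that senses low cellular energy. Its catalytic subunit alpha-2, encoded by Prkaa2, is the main form in heart and skeletal muscle.

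Kat6a (ENSRNOG00000025174) stood at 45.5, 45.2 and 53.6 CPM (a gene's share of its library's counts, scaled to be comparable between libraries) in LacZ, and at 90.8, 82.0 and 106 CPM in WT. It stood at 102, 122 and 101 CPM in K815R, and at 43.4, 50.0 and 45.7 CPM in the libraries labelled K815Q. The lowest raised library had 82.0 CPM and the highest of the others had 53.6 CPM, so the groups did not overlap, and their means were 101 and 47.2 CPM. Because these values chose the groups, they are given without a test. The 3 libraries labelled K815Q went against their label, which names a KAT6A virus, and every direction that rests on them below rests on a label that the Kat6a count does not bear out. The delivered gene was human, and the counts do not separate reads of the delivered transcript that aligned to the rat gene from reads of the cells' own Kat6a.

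Prkaa2 (ENSRNOG00000007706) divided the same libraries the other way and is the second factor of the layout. It stood at 55.4, 54.8 and 72.7 CPM in LacZ and at 78.1, 95.4 and 88.1 CPM in K815R. In WT it stood at 488, 435 and 633 CPM, and in the libraries labelled K815Q at 1232, 1134 and 1139 CPM. The highest library without raised Prkaa2 had 95.4 CPM and the lowest with it had 435 CPM. The layout therefore held each combination in 3 libraries: neither gene raised (LacZ), Kat6a only (K815R), Prkaa2 only (labelled K815Q) and both (WT). Prkaa2 was not level within a state: WT stood at 0.444 times labelled K815Q, and K815R at 1.43 times LacZ. Each combination was also a single virus, so an effect of Prkaa2 state cannot be told apart from an effect of the virus given.

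**Figure D1:**
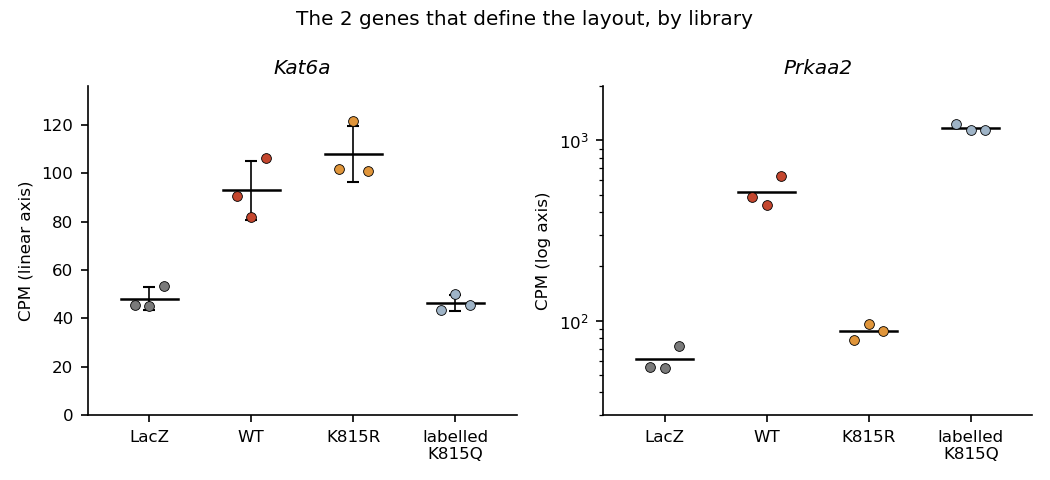
CPM of Kat6a (left, linear axis, mean and SD of 3 libraries) and Prkaa2 (right, log axis, mean) in each library of the 4 groups. Kat6a separates WT and K815R, all at 82.0 CPM or above, from LacZ and labelled K815Q, all at 53.6 CPM or below, while Prkaa2 separates WT and labelled K815Q from the rest.

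The Kat6a term is the difference between the 2 groups with raised Kat6a and the 2 others, averaged over both Prkaa2 states and given on the log2 scale. Gene counts per library were between 19102048 and 25451686, and the depth of the raised libraries (19102048 to 25451686) spanned that of the others (19192015 to 23870785). A count of 3 corresponded to 0.118 to 0.156 CPM. Of 14061 genes tested beside Kat6a and Prkaa2, 22 were called higher with raised Kat6a (0.156%) and 68 lower (0.484%), at a Benjamini-Hochberg adjusted p under 0.05 from the quasi-likelihood test of edgeR. The differences were small. The median absolute log2 difference of the 90 called genes was 0.31, and 6 of them reached 1. At an unadjusted p under 0.05 stood 1419 genes. The count depended on how the 4 groups entered the model: an additive model, which forces the Kat6a difference to be equal in both Prkaa2 states, called 21 genes, 20 of them among the 90, and a model with Kat6a state alone called 4, all among the 90, while DESeq2 called 151 and the fit with no filter on low counts 266. It also depended on single libraries, with 40 genes called without WT replicate 3, 44 without K815R replicate 3 and 47 without labelled K815Q replicate 1.

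Those 4 genes were Hspa2, Nptx2, Penk and Mrc2. They were also called in each of the 12 fits that left out 1 library and in each of the 8 other settings, and they are described first. Nptx2 lies under the level of 5 CPM set for named genes, so it was picked out after its values were seen.

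Hspa2, a member of the HSP70 chaperone family that is best known from developing sperm, was the clearest of them. It stood at 12.9, 13.5 and 12.7 CPM in LacZ and at 13.3, 13.7 and 12.2 CPM in the libraries labelled K815Q. In WT it stood at 19.4, 16.9 and 21.7 CPM and in K815R at 24.2, 25.0 and 25.7 CPM. All 6 libraries with raised Kat6a lay above all 6 others, and K815R lay above WT. The Kat6a term was 0.75 (SE 0.060, 95% interval 0.63 to 0.88, adjusted p = 1.71e-07), a 1.69-fold difference. The 2 separate differences pointed the same way: WT exceeded labelled K815Q by 0.57 (adjusted p = 0.0015) and K815R exceeded LacZ by 0.94 (adjusted p = 9.3e-07). Their difference, the interaction, was -0.37 and did not pass the test (adjusted p = 0.0947).

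Because Hspa2 belongs to a heat shock family, the 250 bases before its RefSeq start were searched for the paired heat shock unit, GAANNTTC or TTCNNGAA, each of which reads the same on both strands. In the GRCr8 assembly, 1 match began 64 bases before the start. A stretch of 30 bases around it, chr6:100864367-100864396 on the plus strand, is shown with the match in capitals.
Hspa2: gctctgagagtTTCCAGAAggcagggggtg
Of all 33469 windows of this length, 13.5% held such a match, as did 2 of the 15 genes called higher that had a window, so the match is a description and nothing more.

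Nptx2 encodes neuronal pentraxin 2, a secreted protein known from synapses. It stood at 1.59, 1.34 and 0.94 CPM in LacZ and at 0.78, 0.86 and 0.83 CPM in the libraries labelled K815Q. The WT libraries had 2.74, 2.02 and 2.14 CPM and the K815R libraries 3.35, 2.52 and 2.45 CPM. No raised library overlapped the others, and the Kat6a term was 1.28 (SE 0.158, adjusted p = 1.37e-04). Each separate difference passed its own test, at 1.47 for WT against labelled K815Q and 1.09 for K815R against LacZ. The 250 bases before its RefSeq start (GRCr8, chr12:15162046-15162295, minus strand) are shown for comparison with Hspa2 and held no match to the heat shock unit, so no letters are in capitals.
Nptx2: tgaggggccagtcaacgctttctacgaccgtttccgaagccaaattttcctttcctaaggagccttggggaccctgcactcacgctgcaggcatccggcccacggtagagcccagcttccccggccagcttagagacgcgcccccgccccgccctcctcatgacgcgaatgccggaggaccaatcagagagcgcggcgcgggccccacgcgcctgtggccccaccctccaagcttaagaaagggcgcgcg

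Penk, the precursor of the enkephalin opioid peptides, was lower with raised Kat6a. It stood at 57.4, 61.8 and 50.2 CPM in LacZ, 57.8, 47.4 and 49.0 CPM in labelled K815Q, 40.2, 44.8 and 39.4 CPM in WT, and 43.3, 36.3 and 40.1 CPM in K815R. The highest raised library (44.8 CPM) lay below the lowest of the others (47.4 CPM). The Kat6a term was -0.41 (SE 0.063, adjusted p = 0.00398), which is 24.6% lower. Of the separate differences, K815R against LacZ passed (-0.50, adjusted p = 0.0039) and WT against labelled K815Q did not (-0.31, adjusted p = 0.12).

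Mrc2, an endocytic receptor that takes up collagen, was lower in both comparisons. It stood at 86.2, 80.0 and 78.8 CPM in LacZ, 83.6, 80.1 and 76.1 CPM in labelled K815Q, 60.2, 68.7 and 65.9 CPM in WT, and 70.3, 70.9 and 67.9 CPM in K815R. Raised libraries ended at 70.9 CPM and the others began at 76.1 CPM. The Kat6a term was -0.26 (SE 0.040, adjusted p = 0.00174), with -0.30 for WT against labelled K815Q (adjusted p = 0.0094) and -0.23 for K815R against LacZ (adjusted p = 0.029).

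The Kat6a term averages 2 separate differences. Of the 90 called genes, 75 had the same sign in both. Genes chosen by a large average of 2 differences tend to share a sign, so that count is a description. The test of the difference between the 2, the interaction, was called in 34 of the 90. WT and labelled K815Q, the pair with raised Prkaa2, differed in 149 genes (1.06%), 49 higher and 100 lower in WT. K815R and LacZ, the pair without it, differed in 347 genes (2.47%), 103 higher and 244 lower in K815R. These comparisons share no library. Each also carries a difference in Prkaa2, which was lower in WT than in labelled K815Q and higher in K815R than in LacZ. Of the 90 genes of the Kat6a term, 31 were also called only in the first, 45 only in the second, 6 in both and 8 in neither. A call in 1 pair alone does not show that the pairs differed. Genes called in both with the same sign were 6, which is 4.03% of the 149 and 1.73% of the 347. Leaving out 1 library moved the 149 to between 49 (without WT replicate 1) and 216, and the 347 to between 172 (without K815R replicate 1) and 363, so these shares rest on counts that single libraries change. They were Hspa2 and Nptx2, higher, and Mrc2, Bmp3, Ifitm3 and Ptgfrn, lower. Called in both with opposite signs were 9 genes (Arrdc3, Clk1, Wnt4, Klf2, Id1, Bicc1, Errfi1, Gpc3 and Pcare). Over all genes the 2 differences had the same sign in 41.9%, and the share was 40.3% among genes called in the first and 29.97% among genes called in the second. Spearman's rho between them over all genes was -0.19 and Pearson's r -0.06, a description over genes, which are not independent replicates.

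**Figure D2:**
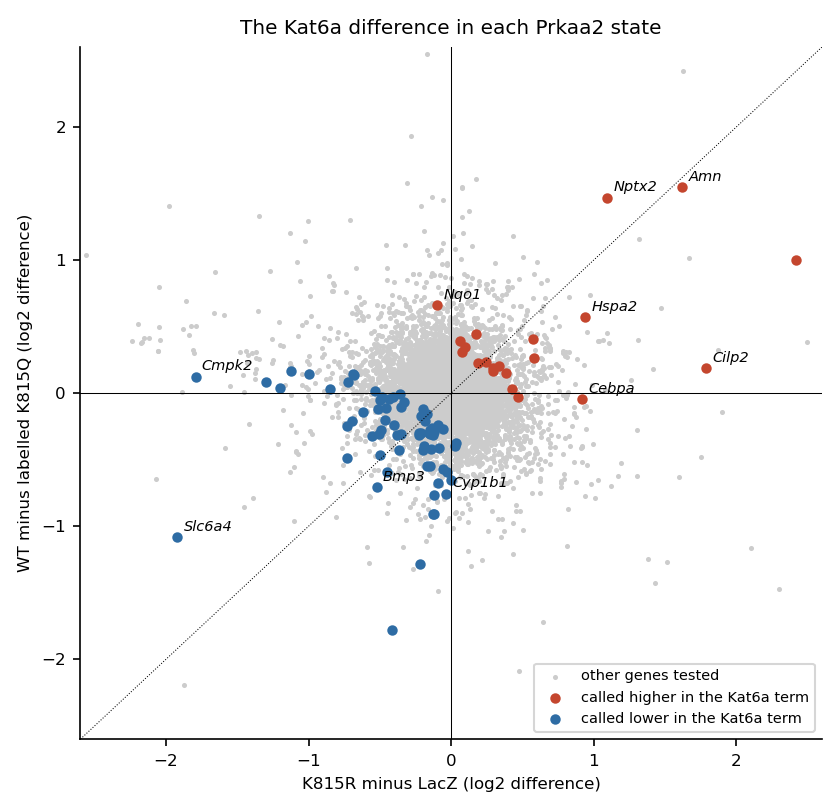
Log2 difference of K815R from LacZ (horizontal) against that of WT from labelled K815Q (vertical) for the genes tested, with genes called higher (red) and lower (blue) in the Kat6a term and the line of equal differences dotted. Nptx2, Amn and Hspa2 lie in the upper right and Bmp3 in the lower left, away from 0 on both axes, and 75 of the 90 called genes have the same sign on both. The Kat6a term averages both differences, so genes called on it tend to share a sign. The plot leaves out 24 genes beyond 2.6 on an axis, 1 of them called.

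Bmp3, a growth factor of the BMP family that tends to oppose the others, illustrates a term called in both comparisons without full separation. It stood at 8.13, 7.80 and 6.15 CPM in LacZ, 6.03, 6.70 and 4.69 CPM in labelled K815Q, 3.70, 3.93 and 3.09 CPM in WT, and 4.79, 5.28 and 5.22 CPM in K815R. The lowest labelled K815Q library, at 4.69 CPM, lay below all 3 of K815R. Its Kat6a term was -0.61 (SE 0.102, adjusted p = 0.00389). Ifitm3, which restricts the entry of viruses into cells, had a term of -0.33 (adjusted p = 6.76e-04), and Ptgfrn, a membrane protein that binds tetraspanins, -0.20 (adjusted p = 0.00388). Both were highest in LacZ and lowest in WT.

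Separation of the 6 raised libraries from the 6 others was rare. In 23 genes (0.164%) all 6 lay above and in 32 (0.228%) all 6 lay below, and 18 of these genes were also called, 5 higher and 13 lower. With a mean of at least 5 CPM there were 14. Besides Hspa2 the only one of these 14 that was higher was Cacna1g, the T-type calcium channel Cav3.1 of pacemaker and neonatal heart cells. It stood at 163, 161 and 175 CPM in LacZ, 181, 190 and 188 CPM in labelled K815Q, 197, 215 and 208 CPM in WT, and 201, 240 and 208 CPM in K815R. The Kat6a term was 0.27 (SE 0.042, adjusted p = 0.00239). K815R exceeded LacZ by 0.38 (adjusted p = 5.5e-04), WT against labelled K815Q, at 0.15, did not pass (adjusted p = 0.24), and the interaction of -0.23 was not called (adjusted p = 0.129).

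In the same set, 12 genes were lower, among them Penk, Cyp1b1, Prrx2, Fbxw17, Qpct, Rgs2, Mrc2, Dhrs3, Mark1, Tm7sf3 and Clstn1. Their Kat6a terms ran from -0.41 in Penk to -0.17 in Clstn1. Rgs2, which damps signalling from Gq-coupled receptors, stood at 24.2 to 28.3 CPM (median 26.6) in the raised libraries and at 30.4 to 36.3 CPM (median 30.95) in the others, a term of -0.27 (adjusted p = 0.0111). The difference was -0.31 for WT against labelled K815Q (adjusted p = 0.036) and -0.23 for K815R against LacZ (adjusted p = 0.10), and their own difference did not pass (interaction -0.08, adjusted p = 0.703). Qpct, the enzyme that caps peptides with pyroglutamate (-0.31), Dhrs3, which returns retinal to retinol (-0.25), Tm7sf3, a membrane protein (-0.22), Mark1, a microtubule-affinity kinase (-0.23), and Clstn1, a cargo adaptor of kinesin motors, each kept the call in 6 or fewer of the 12 fits without 1 library. Qpct kept it in 2, Tm7sf3 in 2 and Dhrs3 in 0.

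For Cyp1b1 and Prrx2, the difference was called in WT against labelled K815Q and not in K815R against LacZ, and the interaction was called as well. Cyp1b1, a cytochrome P450 induced through the aryl hydrocarbon receptor, stood at 96.8, 96.7 and 101 CPM in LacZ, 96.2, 94.2 and 95.8 CPM in K815R, 66.9, 69.7 and 65.0 CPM in WT and 122, 117 and 101 CPM in labelled K815Q. The raised and other libraries did not overlap, but K815R and LacZ were separated by under 1 CPM at their nearest libraries (96.2 and 96.7). Its Kat6a term was -0.40 (SE 0.041, adjusted p = 1.24e-05) and its interaction -0.72 (adjusted p = 1.14e-04): WT was lower than labelled K815Q by -0.76 (adjusted p = 1.1e-07), and K815R differed from LacZ by -0.04 (adjusted p = 0.83). Prrx2, a homeobox factor of mesenchymal cells, had a term of -0.38 (adjusted p = 0.00757) and an interaction of -0.58 (adjusted p = 0.0263).

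**Figure D3:**
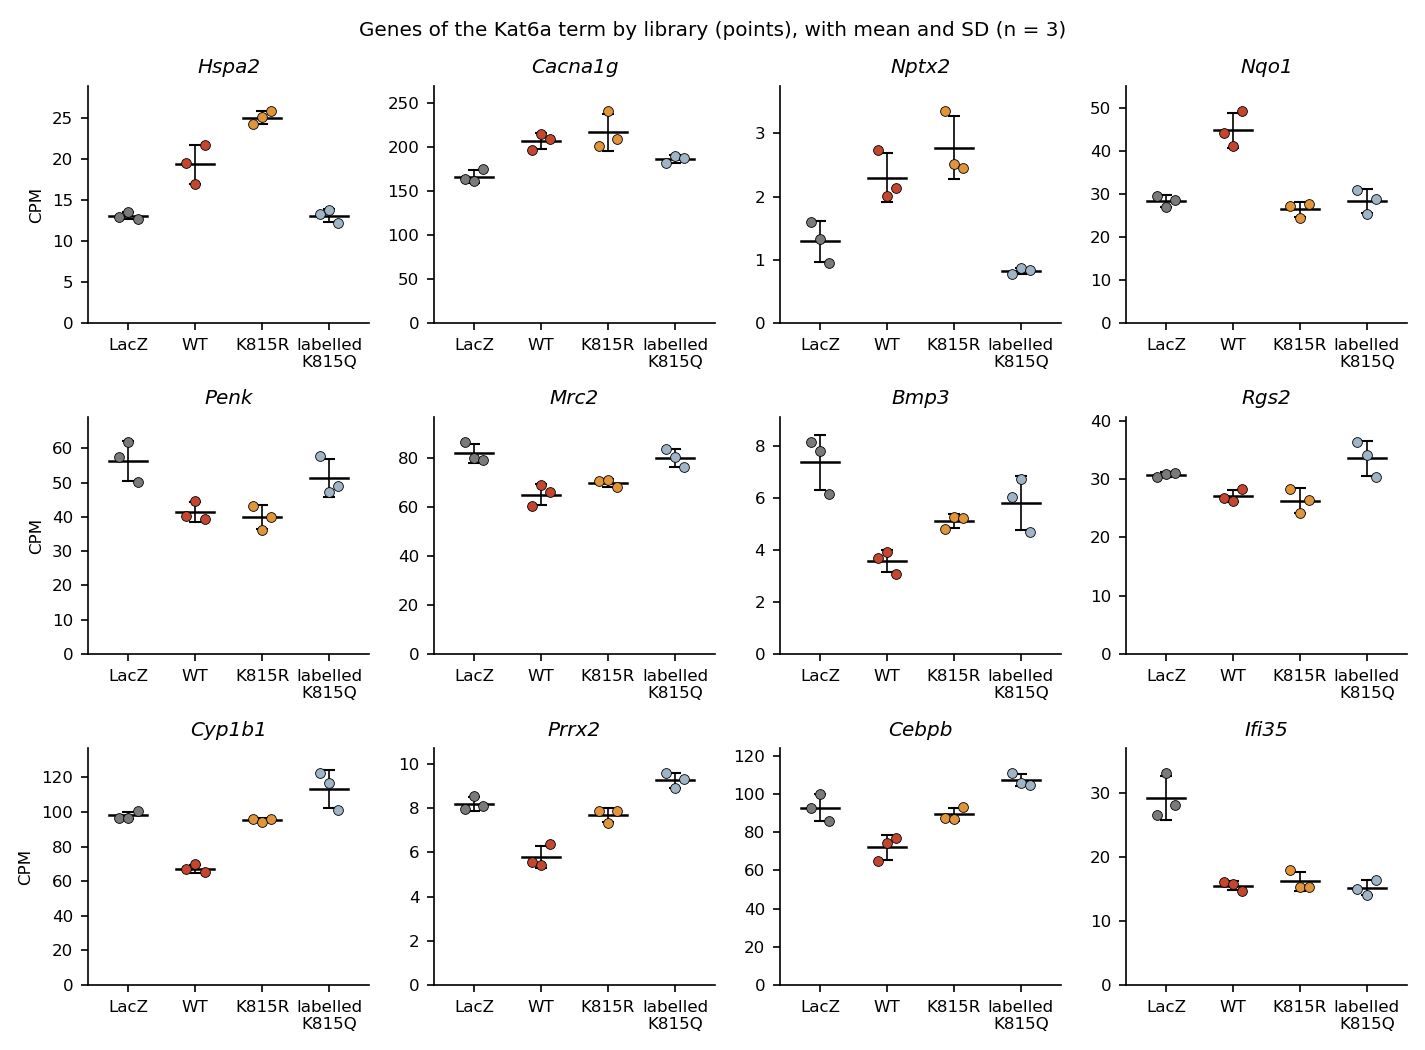
CPM of 12 genes called in the Kat6a term, each point a library, with the mean and SD of the 3 libraries of a group. Hspa2, Cacna1g and Nptx2 are high and Penk, Mrc2 and Rgs2 low in both WT and K815R. Nqo1 is high in WT, Cyp1b1, Prrx2 and Cebpb are low in WT and highest in labelled K815Q, and Ifi35 is high in LacZ only.

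Many of the 90 called genes had a single group apart from the other libraries. LacZ lay wholly above or below the 9 other libraries in 41 of them (34 above, 7 below), against 5.75% of all genes. WT did so in 37 (31 below, 6 above), against 3.87% of all genes. K815R stood apart in 11 (1.68% of all genes) and the libraries labelled K815Q in 12 (3.05%), 2 groups stood apart in 23, and none in 12. A gene that is high in LacZ alone has a Kat6a term of minus 0.5 times that offset and an interaction equal to it, with the same test statistic in both, so it can be called in either. These shares use the measurements that made the calls and are a description.

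C/EBP transcription factors, which govern differentiation and acute responses, differed among themselves: of 5 tested, 1 was called higher and 1 lower (background 0.156% and 0.484%). Cebpa stood at 8.91, 8.87 and 8.85 CPM in K815R and between 4.23 and 5.94 CPM in the 9 other libraries, and only K815R stood apart, with WT at 4.92, 5.58 and 5.75 CPM. Its term was 0.43 (adjusted p = 0.00814). Cebpb stood at 64.8, 74.3 and 77.1 CPM in WT, 87.5, 87.1 and 93.2 CPM in K815R, 92.5, 100.2 and 86.1 CPM in LacZ, and 111, 106 and 105 CPM in labelled K815Q. Here WT was lowest, and the term was -0.32 (adjusted p = 8.15e-04). Both genes had a called interaction, -0.96 for Cebpa and -0.52 for Cebpb.

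Of 20 tested targets of NRF2, the factor that switches on antioxidant genes, 1 was higher and 1 lower (background 0.156% and 0.484%). Nqo1, a quinone reductase, stood at 44.2, 41.0 and 49.1 CPM in WT and between 24.4 and 30.9 CPM in the 9 others, K815R included. The term was 0.28 (adjusted p = 0.0203) with an interaction of 0.76 (adjusted p = 7.14e-04). Me1, the cytosolic malic enzyme, had a term of -0.16 (adjusted p = 0.0229) and kept the call in 6 of the 12 fits without 1 library.

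Of 27 heat shock genes tested, Hspa2 included, 2 were called higher (background 0.156%), Hspa2 and Hspa1b. Hspa1b, the stress-inducible HSP70, stood at 4.03 to 5.54 CPM in the raised libraries and 2.84 to 3.91 CPM in the others, a term of 0.49 (adjusted p = 0.0214) that kept the call in 6 of the 12 fits without 1 library. Its near-identical copy Hspa1a shares its reads, so the value of either gene alone is uncertain. The median of the list was 0.00, beside 0.01 over all genes.

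Genes of calcium handling and excitation held 1 higher and 2 lower calls among 29 (background 0.156% and 0.484%): Cacna1g, and Kcnk2 and Gja5. Kcnk2, the stretch-sensitive potassium channel TREK-1, had a term of -0.40 (adjusted p = 0.0214, called in 6 of the 12 fits without 1 library), and Gja5, connexin 40 of atrial and conduction tissue, -0.32 (adjusted p = 0.0171). Classical growth markers of cardiomyocytes were not called, and 95% intervals bound their terms. The term was 0.08 for Nppa (interval -0.03 to 0.19), 0.05 for Nppb (-0.04 to 0.15), 0.05 for Myh6 (-0.03 to 0.13) and 0.21 for Myh7 (0.08 to 0.34, adjusted p = 0.167, and called by DESeq2 with an adjusted p of 0.0348). Myh7 stood at 4945, 5153 and 5100 CPM in K815R, above the 9 others, and at 3682 to 4190 CPM in WT. Nppa, at 12980 to 13857 CPM in K815R, also lay above the 9 others there. Nppb had its highest mean in K815R (1233 CPM, beside 1121 CPM in LacZ), but these libraries overlapped. Of 23 p53 target and senescence genes, Phlda3 (-0.22) and Cdkn2b (-0.28), a repressor of AKT and an inhibitor of CDK4 and CDK6, were lower and none was higher (background 0.156% and 0.484%). Phlda3 kept the call in 12 and Cdkn2b in 4 of the 12 fits without 1 library.

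No partner of Kat6a was called with it. Over all genes 0.156% were called higher and 0.484% lower, so 0 calls in each short list here is near the background. Among 7 other members of the MOZ and MORF complexes, 0 were called, with terms of 0.19 for Kat6b, the paralog of Kat6a (SE 0.067, adjusted p = 0.249), -0.05 for Brpf1, -0.07 for Brd1, -0.12 for Brpf3, 0.06 for Ing5 and -0.03 for Meaf6. Kat6b stood at 20.4, 19.8 and 21.8 CPM in WT, 16.1, 20.7 and 15.3 CPM in K815R and 15.4 to 18.6 CPM in the others. Of 8 HOX and MEIS genes tested, of 26 listed, 0 were called. AMPK subunits and kinases gave 0 of 10: the term was -0.09 for Prkaa1, 0.01 for Prkab1, 0.08 for Prkab2, 0.08 for Prkag1 and -0.00 for Prkag2.

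Mitochondrial and metabolic lists likewise held no call in the Kat6a term, which is near the background of 0.156% higher and 0.484% lower. These were 0 of 74 nuclear OXPHOS subunits (median 0.01), 0 of 13 mRNAs of mitochondrial DNA (0.06, all 13 with a positive sign), 0 of 19 regulators of mitochondrial biogenesis (0.02), 0 of 27 fatty acid genes (0.01), 0 of 24 glycolysis genes (0.02) and 0 of 17 TCA cycle genes (0.01), beside a median of 0.01 over all genes. Among the mitochondrial mRNAs, Mt-nd4, a subunit of complex I, had a term of 1.34 that was not called (adjusted p = 0.492), and the other 12 lay between 0.02 and 0.10. An uncalled term does not show that a gene was alike in the groups. Ppargc1a, the coactivator that drives mitochondrial biogenesis, stood at 22.5 to 28.7 CPM with raised Kat6a and 21.6 to 29.0 CPM without, a term of 0.02 (interval -0.11 to 0.16).

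Markers of other cells moved with part of these results. Cardiomyocyte markers summed to 46725 to 51851 CPM in the raised libraries and 45128 to 48777 CPM in the others, and 0 of 7 were called. Within the raised libraries K815R, at 50609 to 51851 CPM, lay above all 9 others, and WT, at 46725 to 48396 CPM, lay within the range of LacZ and labelled K815Q. The sum includes the growth marker Nppa, with a mean of 13533 CPM in K815R and 11043 to 11569 CPM in the other groups. It also includes Myh6, with 12389 CPM in K815R and 12165 to 13008 CPM in the other groups. So that sum is not a measure of cell content alone. Genes in which K815R stood apart, such as Cebpa and Myh7, were high where that sum was high, and its part in them was not tested. Fibroblast markers (Col1a1, Col1a2, Col3a1, Dcn, Pdgfra, Tcf21 and Postn) summed to 10830 to 11861 CPM in the raised libraries and 11669 to 12629 CPM in the others, lower on the side where Mrc2, Prrx2 and most called genes were lower, though 0 of 7 were called. Their part in the result was not tested, and in bulk RNA fewer cells of a type and less RNA per cell cannot be told apart. Macrophage and leukocyte markers summed to 59.7 to 74.4 CPM in LacZ, 74.2 to 77.6 in WT, 74.8 to 79.9 in K815R and 78.8 to 84.6 in labelled K815Q. Endothelial markers summed to 154 to 193 CPM with raised Kat6a and 130 to 178 CPM without. In none of the marker lists was a gene at 0 in every library.

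The interaction asks whether the Kat6a difference was unequal between the Prkaa2 states. It is the difference of WT from labelled K815Q minus that of K815R from LacZ. Each state holds its own viruses, so dependence on Prkaa2 cannot be told apart from a difference between viruses. The interaction was called in more genes than the Kat6a term, 243 positive (1.73%) and 168 negative (1.19%), with a median absolute value of 0.57 on the log2 scale. In 390 of the 411 the separate differences had opposite signs. Genes chosen by a large difference between the separate differences tend to have opposite signs, so that count is a description. Over all genes the signs were the same in 41.9%. LacZ stood apart in 137 of the 411 (110 above, 27 below), WT in 67, K815R in 30, labelled K815Q in 64 and no single group in 155. A pattern of another kind, LacZ and WT together apart from K815R and labelled K815Q, was found in 87, 42 above and 45 below, and in 1.02% of all genes. The number called lay between 169 and 679 when 1 library was left out, the lowest without labelled K815Q replicate 1 and the highest without K815R replicate 2.

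Genes low in LacZ and WT and high in K815R and labelled K815Q included several that answer to BMP signals or flow. Klf2, a flow-responsive Krüppel-like factor, stood at 9.05, 10.2 and 8.28 CPM in LacZ, 10.0, 10.2 and 10.6 CPM in WT, 13.1, 12.9 and 14.7 CPM in K815R, and 14.8, 14.6 and 14.8 CPM in labelled K815Q. The 2 pairs of groups did not overlap, while the Kat6a term was 0.03. The interaction was -1.08 (SE 0.127, adjusted p = 1.14e-04), with called differences of opposite sign, -0.52 and 0.57. Id1, an inhibitor of bHLH factors and a direct BMP target, stood at 32.5 to 38.0 CPM in LacZ and WT and 42.1 to 61.1 CPM in K815R and labelled K815Q, an interaction of -0.97 (adjusted p = 0.00517). Its relative Id4 had -1.06, Wnt4, a secreted WNT ligand, -1.12, and Foxc2, a forkhead factor of mesenchyme and vessels, -1.09.

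Of 18 tested genes of the BMP response, 5 had a called negative interaction (Id1, Id2, Id4, Smad7 and Bmp4) and none a positive one (background 1.19% and 1.73%), and the list median was -0.37 beside -0.00 over all genes. Against the same 1.19%, immediate early genes gave 4 negative of 22 (Egr3, Nr4a1, Klf2 and Klf4; median -0.37) and cardiac transcription factors 5 negative of 25 (Hand2, Irx3, Irx5, Foxc1 and Foxc2; median -0.16). In the Kat6a term each of these lists gave 0 calls, near the background of 0.156% higher and 0.484% lower. Among the mRNAs of mitochondrial DNA, Mt-co2 (-0.45, adjusted p = 0.0308) and Mt-atp6 (-0.49, adjusted p = 0.0384) were called, 2 of 13 against 1.19% of all genes, and the median of 13 was -0.43.

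The opposite pattern, high in LacZ and WT, was seen in Arrdc3 and Clk1. Arrdc3, an arrestin-domain protein that takes receptors off the surface, stood at 37.9, 40.2 and 43.2 CPM in LacZ, 39.0, 37.7 and 45.2 CPM in WT, 30.3, 32.1 and 31.0 CPM in K815R, and 31.1, 31.3 and 26.9 CPM in labelled K815Q. The interaction was 0.83 (adjusted p = 2.32e-04). Clk1, a kinase of splicing factors, had 86.8 to 101 CPM in LacZ and WT against 63.4 to 79.5 CPM in the others, an interaction of 0.76 (adjusted p = 0.00108). Myo7a, an unconventional myosin, differed otherwise: WT stood alone at 11.4, 11.5 and 11.4 CPM, above the rest, which reached at most 8.59 CPM, with an interaction of 0.98 (adjusted p = 0.00319). Ncapg, a condensin subunit (0.82), and S100a3, a calcium-binding protein (0.77), kept the call in 6 and 2 of the 12 fits without 1 library.

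**Figure D4:**
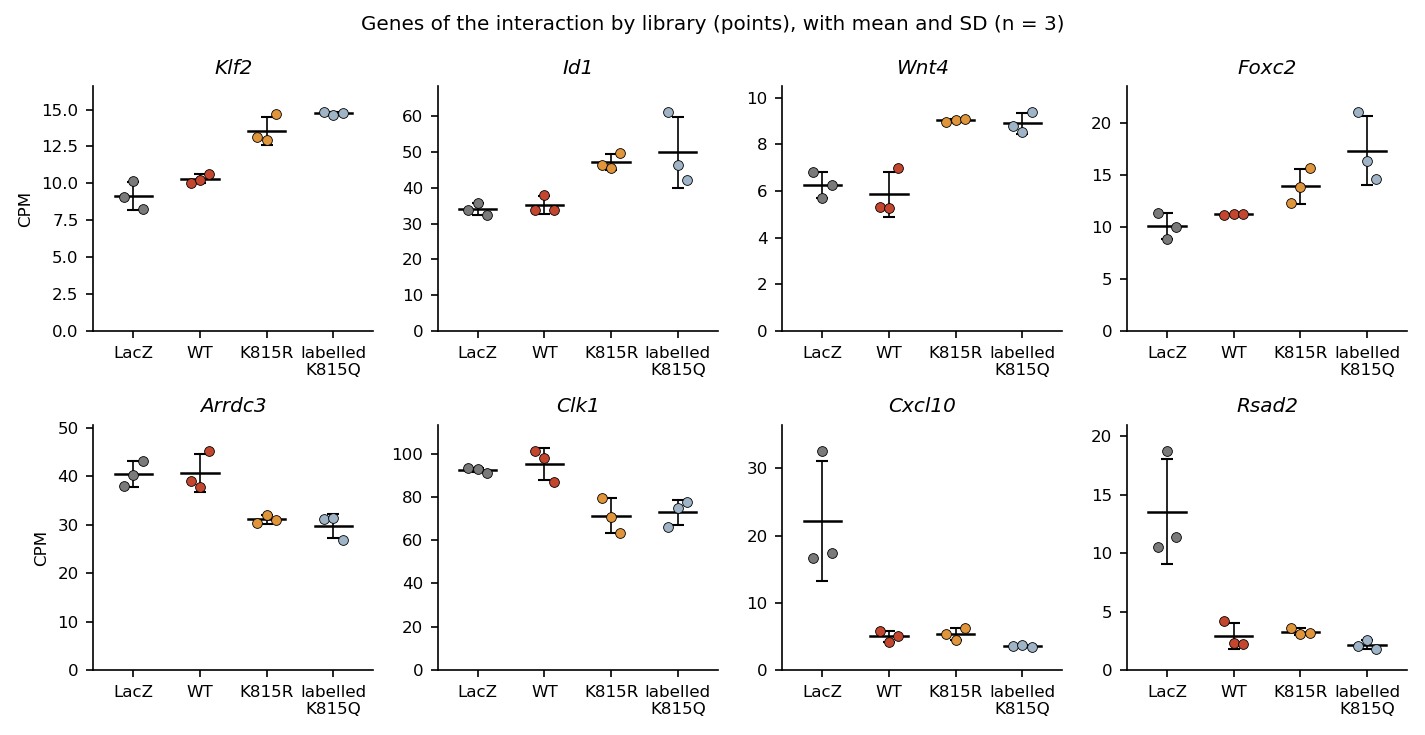
CPM of 8 genes with a called interaction, each point a library, with the mean and SD of the 3 libraries of a group. Klf2, Id1, Wnt4 and Foxc2 are low and Arrdc3 and Clk1 high in both LacZ and WT, whereas Cxcl10 and Rsad2 are high in LacZ alone.

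Interferon-stimulated genes, which cells switch on when they sense viral nucleic acid, were highest in LacZ. Of 37 tested, 20 had a called positive interaction and 0 a negative one (background 1.73% and 1.19%), and the median interaction was 1.66. LacZ stood apart from the 9 other libraries in 36 of the 37 (background 5.75%). Between K815R and LacZ 34 were lower (background 2.47% in either direction), and between WT and labelled K815Q, where no LacZ library enters, 0 were called (background 1.06%), with a median of 0.32. Rsad2, the antiviral enzyme viperin, stood at 10.5, 18.7 and 11.4 CPM in LacZ, 4.16, 2.27 and 2.19 CPM in WT, 3.61, 3.07 and 3.18 CPM in K815R, and 2.08, 2.59 and 1.82 CPM in labelled K815Q. Its interaction was 2.45 (SE 0.456, adjusted p = 0.0225). Cxcl10, a chemokine that draws T cells, ranged from 16.6 to 32.5 CPM in LacZ and from 3.39 to 6.18 CPM elsewhere, and Dhx58, a helicase of the RIG-I family, from 15.0 to 25.3 and from 1.87 to 7.16 CPM, with interactions of 2.54 and 2.55. Dhx58 kept the call in 1, Cxcl10 in 5 and Rsad2 in 8 of the 12 fits without 1 library.

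That signal was not confined to the interaction. The same 37 genes had a median Kat6a term of -0.53, beside 0.01 over all genes, 36 of them had a negative sign, and 3 were called lower (Cmpk2, Ifi35 and Ifit2; background 0.484%). Ifi35 stood at 26.5, 33.1 and 28.1 CPM in LacZ and 14.1 to 17.9 CPM in the 9 other libraries. Its Kat6a term was -0.41 (adjusted p = 0.00239) although WT differed from labelled K815Q by only 0.03 (adjusted p = 0.92). The term came from K815R against LacZ (-0.85, adjusted p = 4.5e-06), and the interaction was 0.88. Cmpk2, a mitochondrial nucleotide kinase, followed the same course (term -0.83, interaction 1.92), as did Ifit2 (-0.27 and 0.82). Irf7, the factor that amplifies the response, stood at 103 ± 43.2 CPM (SD, n = 3) in LacZ and 9.30 to 29.3 CPM in the others, and its term of -0.89 was not called (adjusted p = 0.34). Of other called genes known to respond to interferon, Parp12, Trim21, Sp110 and Ifi47, singled out after their values were seen, each had LacZ wholly above the 9 other libraries. Cxcl11 (term -0.26) and the immunoproteasome subunit Psmb8 (-0.45) were also highest in LacZ, but Psmb8 kept the call in 3, Cxcl11 in 7 and Ifit2 in 6 of the 12 fits without 1 library. The 15 antigen presentation genes gave 1 lower call (background 0.484%) and 6 positive interactions (background 1.73%).

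Cxcl10 and Rsad2 moved together and are interferon targets, so their start regions were searched on both strands for GAAANNGAA, a core of the interferon-stimulated response element. The 250 bases before the RefSeq start of Cxcl10 (GRCr8, chr14:15988816-15989065, plus strand) are shown with the match in capitals. For Rsad2, 30 bases around the match are shown in the same way (chr6:48788247-48788276, minus strand). The Rsad2 match began 146 bases before the start.
Cxcl10: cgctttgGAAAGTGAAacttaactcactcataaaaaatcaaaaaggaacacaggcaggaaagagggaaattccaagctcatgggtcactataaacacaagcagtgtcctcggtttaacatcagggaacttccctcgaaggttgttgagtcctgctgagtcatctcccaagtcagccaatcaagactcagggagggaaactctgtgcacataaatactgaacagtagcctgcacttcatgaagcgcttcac
Rsad2: tggttcaactTTCATTTTCagaaaacagaa
In Rsad2 the match lies on the other strand. Each window held 1 match, and that of Ifi35 held 0. The core was present in 8.12% of all 33469 windows and in 23 of the 85 genes (27.1%) with a positive interaction and LacZ on top that had a window. Among genes called lower in the Kat6a term it was present in 5 of 47 (10.6%). The windows were not limited to the genes tested, so these shares are a description and nothing more.

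Cell cycle genes, of which 38 were tested, gave 0 calls in the Kat6a term (background 0.156% higher and 0.484% lower), with a median of -0.11. They gave 3 positive interactions (background 1.73%), Mki67 (0.54), Top2a (0.46) and Cenpf (0.61). LacZ stood apart in 12 of the 38 (background 5.75%), and 12 were lower in K815R than in LacZ (background 2.47%). Between WT and labelled K815Q 0 were called, which is near the background of 1.06%. Of 7 fibroblast markers tested, Pdgfra (-0.48, adjusted p = 0.00491) and Tcf21 (-0.54, adjusted p = 0.0405) had called negative interactions (background 1.19%), the sign of the BMP genes. The median of the 7 was -0.007, beside -0.002 over all genes, so the fibroblast list as a whole did not move that way. Macrophage and leukocyte markers did: their median interaction was -0.36, near the -0.37 of the BMP list. Of these 8 markers, 1 had a called negative interaction and 0 a positive one (background 1.19% and 1.73%). The part of these markers in the BMP result was not tested.

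**Figure D5:**
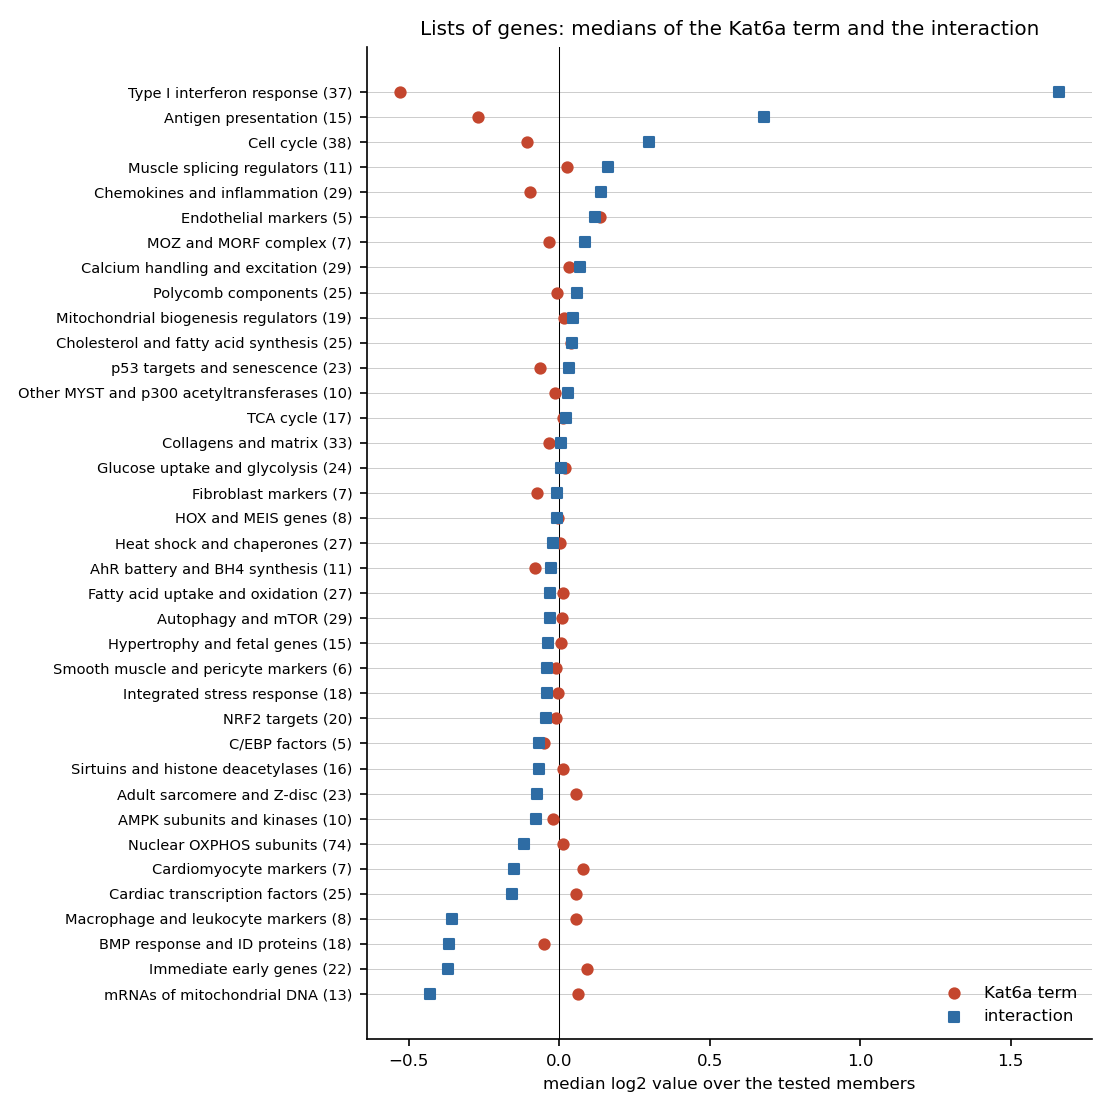
Median over the tested members (number in brackets) of each list of at least 5 genes, for the Kat6a term (red circles) and the interaction (blue squares), in log2 units. Interferon and antigen presentation genes have the most negative Kat6a medians, -0.53 and -0.27, and the most positive interactions, while mRNAs of mitochondrial DNA, immediate early genes and BMP genes have the most negative interactions.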

How the data were processed

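Poly(A) RNA of 12 libraries in 4 groups of 3 was sequenced. The authors deposited a table of raw counts of reads per gene for 32883 rat genes. Reads were processed with Trimmomatic 0.39, HISAT2 2.2.1 and HTSeq 0.6.1 on Rnor_6.0, per the submitters' processing notes; the strand setting and annotation are not given in the sources used here, so overlapping and antisense genes are uncertain. Between 56.7% and 59.3% of reads were assigned to genes; the 5 counters that name no gene were left out. Group and replicate number came from the sample titles. No 2 libraries of a group agreed within sampling noise (chi-square per degree of freedom 4.54 to 8.74).

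Counts were scaled by TMM. The filter filterByExpr, with its minimum count at 10 and its minimum total at 15, left 14063 genes. One model of the 4 group means over all 12 libraries was fitted with edgeR 4.0.16 (quasi-likelihood, robust) in R 4.3.3. P-values were adjusted by Benjamini-Hochberg over all genes, and genes under 0.05 were called. The common biological coefficient of variation was 0.0581. Kat6a and Prkaa2 chose the layout and are left out of counts. CPM values are TMM-scaled. Intervals and floors cover the spread between libraries and counting error, respectively. On simulated data with 200 genes among 13968 changed by 0.5 or 1 on the log2 scale, 195 were called, with 12 calls among unchanged genes. The changed genes had at least 5 CPM and no interaction. Detection at 0.31, the median size of the genes called here, was therefore not tested.

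The groups, gene lists (39) and rules were chosen with earlier results of these data known. Genes named for the Kat6a term were called, at a mean of at least 5 CPM, without overlap between the 6 and 6 libraries, up to 12 per direction. For the interaction they were the 5 largest per sign where LacZ did not stand apart and the 3 largest where it did. A panel, up to 3 called genes per list and the genes called in both separate differences were added; 1 gene that met the rule is not reported here. Promoter windows came from RefSeq (GRCr8) and were matched by symbol, 62 of 90 genes of the Kat6a term having one. Alternatives were a stricter filter on low counts and none, scaling by RLE or upper quartile, the replicate number as a term, an additive model, Kat6a state alone, DESeq2 1.42.0, fits of only the libraries compared, and leaving out each library.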

Additional observations from a re-analysis of the deposited data

Results flagged for a closer look

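The Kat6a difference of several named genes differed between the 2 Prkaa2 states by the test of the interaction itself (WT minus labelled K815Q against K815R minus LacZ, log2 scale, quasi-likelihood test of edgeR, Benjamini-Hochberg adjusted, 3 libraries per group). Each state holds its own viruses, so Prkaa2 state and virus cannot be told apart here. Values were negative for Wnt4 (-1.12), Foxc2 (-1.09), Klf2 (-1.08), Id4 (-1.06) and Id1 (-0.97), in which K815R and labelled K815Q were high. They were also negative for Cebpa (-0.96) and Epop (-0.77), high in K815R, and for Cnrip1 (-0.72), Irx3 (-0.57) and Fam57b (-0.56), lowest in LacZ. Cyp1b1 (-0.72), Prrx2 (-0.58) and Cebpb (-0.52), low in WT and highest in labelled K815Q, had negative values too.

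Positive values were found for Clk1 (0.76), Arrdc3 (0.83), Ncapg (0.82) and S100a3 (0.77), for Nqo1 (0.76) and Myo7a (0.98), which were high in WT, and for the genes high in LacZ: Cxcl11 (0.55), Ifit2 (0.82), Ifi35 (0.88), Cmpk2 (1.92), Rsad2 (2.45), Cxcl10 (2.54) and Dhx58 (2.55). Adjusted p-values ran from 1.14e-04 (Klf2 and Cyp1b1) to 0.0493 (S100a3). The interaction was tested in all 14063 genes, and these are ones described here that passed. Epop, a partner of Polycomb repressive complexes, stood at 7.78, 7.72 and 7.17 CPM in K815R and at 4.19 to 5.53 CPM in the 9 other libraries, with an uncalled Kat6a term of 0.13.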

How the results depend on the processing

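Without a filter on low counts, calls numbered 266 in the Kat6a term (67 higher, 199 lower), 813 in the Kat6a by Prkaa2 interaction (509 positive, 304 negative), 421 for WT minus K815Q and 599 for K815R minus LacZ. In the Kat6a term the additive model gave 21 (10 higher, 11 lower), Kat6a state alone 4 (2 higher, 2 lower) and DESeq2 151 (124 lower), 85 of them among the 90; RLE scaling kept all 90 and upper-quartile scaling 87. With the replicate block, which took the number in the titles as a shared label, calls for WT minus K815Q were 230 in place of 149. Only 1 of 18 same-number pairs correlated above 0.1 in their deviations (-0.127 to 0.122, other pairs -0.129 to 0.145). Same-number pairs among WT, K815R and K815Q were all positive (1.9e-04 to 0.122). Those with LacZ were negative except LacZ 1 with K815Q 1 (0.028). Whether the numbers pair the libraries is therefore not settled. The cause of the shifts in calls was not tested.

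Leaving out 1 library gave 40 to 98 calls in the Kat6a term (10 to 28 higher, 30 to 75 lower), 169 to 679 in the Kat6a by Prkaa2 interaction (90 to 430 positive, 79 to 249 negative), 49 to 216 for WT minus K815Q and 172 to 363 for K815R minus LacZ. The Kat6a by Prkaa2 interaction moved by over 1.5 times without LacZ 2 (253) or 3 (195), WT 1 (206) or 3 (182), K815R 1 (191), 2 (679) or 3 (194), or K815Q 1 (169). WT minus K815Q did so without WT 1 (49) or 3 (65) or K815Q 1 (52), and K815R minus LacZ without LacZ 2 (184) or 3 (228) or K815R 1 (172) or 3 (195). Among the genes described, signs turned only in uncalled ones. The Kat6a term of Prkag2 was 0.0020 under upper-quartile scaling and -0.043 to 0.035 without 1 library, with -0.066 to 0.012 for Meaf6, -0.0082 to 0.025 for Prkab1 and -0.020 to 0.070 for Ppargc1a. Genes under about 0.16 CPM fall below 3 counts in at least 1 library.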
